A study of Mus musculus with 24 samples.

Results

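The response of splenic B cells without p53 to ionizing radiation (IR) was described from 4 RNA-Seq samples of the 24 in the series. Of these, 2 came from B cells of Trp53-/- mice exposed to 7 Gy and 2 from B cells of mock-treated Trp53-/- mice, and they were chosen by their labels alone, as all the samples of this genotype and cell type. The mice were of the C57/Bl6 strain and 8 weeks of age, the whole animal was irradiated, and spleens were taken after 4 h. B cells were the splenocytes that bound magnetic beads against B220, a surface form of CD45 found on B cells, so that every group holds the mixture this enrichment leaves. Compared groups were the B cells of Trp53+/+ mice (4 irradiated and 4 mock samples) and the remaining splenocytes, or non-B cells, of Trp53-/- mice (2 irradiated and 2 mock samples). The Trp53 deletion is carried by every cell of the null animals from birth, mock and irradiated alike, and the study's methods count 2 such mice in each condition without tying a sample to a mouse. Of 21671 genes listed, 13086 had an RPKM (reads scaled by exon length and by the total of reads on exons) above 1 in at least 1 of the 4 samples and were tested.

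p53 is the transcription factor that DNA breaks switch on through the kinases Atm and Chk2. In lymphocytes it drives genes that stop the cell cycle, such as Cdkn1a, and genes that start apoptosis, such as Bbc3 and Bax, and splenic B cells die rapidly after irradiation when it is present. Breaks also engage pathways that do not pass through p53, among them checkpoint kinases acting on Cdc25 phosphatases and the NF-kB pathway, so transcripts can still move in Trp53-/- cells. Which pathway moved a given transcript was not tested.

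The 4 samples held an estimated 8.81 to 9.32 M (megareads) on exons, against 4.80 to 10.3 M in the Trp53+/+ B samples and 7.37 to 10.4 M in the Trp53-/- non-B samples, and in the 4 a single read on a transcript of 2 kb was worth an RPKM of 0.0536 to 0.0568. The 2 mock samples had a Spearman correlation of 0.99 across genes and the 2 irradiated ones 0.985, against 0.913 to 0.932 between a mock and an irradiated sample. Across genes, the SD of the log2 difference was 0.325 between the mock samples and 0.428 between the irradiated samples. Of 1409 genes of olfactory and vomeronasal receptors, which spleen should not express, 7.81% and 7.03% were above 0 in the mock samples. The shares were 6.60% in irradiated sample 1 and 13.0% in irradiated sample 2. In irradiated Trp53+/+ B samples 1 to 4 they were 36.6%, 47.3%, 6.81% and 15.8%. The summed RPKM of 10 B cell markers was 1158 and 1209 in the mock samples and 1079 and 1019 after IR. Markers of T cells summed to 119 and 76.6 against 57.7 and 88.4, and those of NK cells, neutrophils, red cells and platelets also overlapped between the groups. Markers of myeloid and dendritic cells did not overlap, with 669 and 701 in the mock samples and 454 and 629 after IR, and of these 14 genes Fcgr1 fell and Cd14 rose. In bulk RNA, fewer cells of a type and less RNA per cell cannot be told apart.

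Irradiation changed many transcripts in cells without p53. Of the genes tested, 3378 (25.8%) passed an adjusted p of 0.05 with an absolute log2 fold change above 0.58 (limma with Benjamini-Hochberg adjustment). Of these, 1818 rose (13.9% of genes tested) and 1560 fell (11.9%). Differences are on the log2(RPKM + 0.5) scale, which understates the change of low genes, and the median over all genes tested was 0.03. Both irradiated samples lay above both mock samples for 40.7% of genes and below both for 32.9%, and an exact permutation test of 2 against 2 samples cannot give a p below 0.333. The fit takes its estimate of the spread from all 12 B samples. With the 4 Trp53-/- samples alone, 1748 genes rose and 1320 fell, which kept 93.5% of the rises and 82.6% of the falls. These p-values measure the spread between the samples. The number of genes that fell was the less stable count, 1049 without irradiated sample 1 and 2121 without irradiated sample 2.

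The gene with the largest rise was Slc1a4 (chr11:20202183-20232716, minus strand, mm9), which encodes a transporter of serine, alanine and other neutral amino acids. Its RPKM was 0.417 and 0.837 in the mock samples and 14.3 and 11.6 after IR, a log2 difference of 3.59 (SE 0.26, adjusted p = 1.6e-06). Ccl22, a chemokine that attracts regulatory and helper T cells, went from 1.08 and 1.31 to 12.5 and 17.1. Dctd, the deoxycytidylate deaminase that feeds thymidylate synthesis, went from 2.66 and 1.90 to 23.2 and 21.8. Each of the 3 rose in both irradiated samples far beyond either mock sample, and samples that do not overlap were a condition of their selection. The rises of Nefh, Nr6a1, Tcam1, Wnt10b and Lrrc16b were between 2.82 and 2.87 on the log2 scale.

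The largest fall was that of Stac2 (chr11:97897937-97914776, minus strand, mm9), an adaptor protein with an SH3 domain, from an RPKM of 15.6 and 17.0 to 0.780 and 1.20, a log2 difference of -3.51 (SE 0.38, adjusted p = 2.2e-05). Sele, the endothelial selectin, fell from 10.9 and 10.04 to 0.311 and 0.921. Spns2, a transporter that exports sphingosine 1-phosphate, fell from 17.6 and 18.1 to 2.22 and 2.72, and Cacna1i, a subunit of a voltage-gated calcium channel, from 32.6 and 31.2 to 4.37 and 5.31. Rapgef4, an exchange factor that responds to cyclic AMP, fell from 19.6 and 18.04 to 2.31 and 3.18. The irradiated samples differed widely for Slc15a2, a peptide transporter, with 0.405 in sample 1 and 8.95 in sample 2 against 19.6 and 19.9 in the mock samples. The fall of Slc15a2 had an adjusted p of 0.0099, which became 0.065 without irradiated sample 1, 0.052 without either mock sample and 0.074 in the 4 samples alone.

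**Figure D1:**
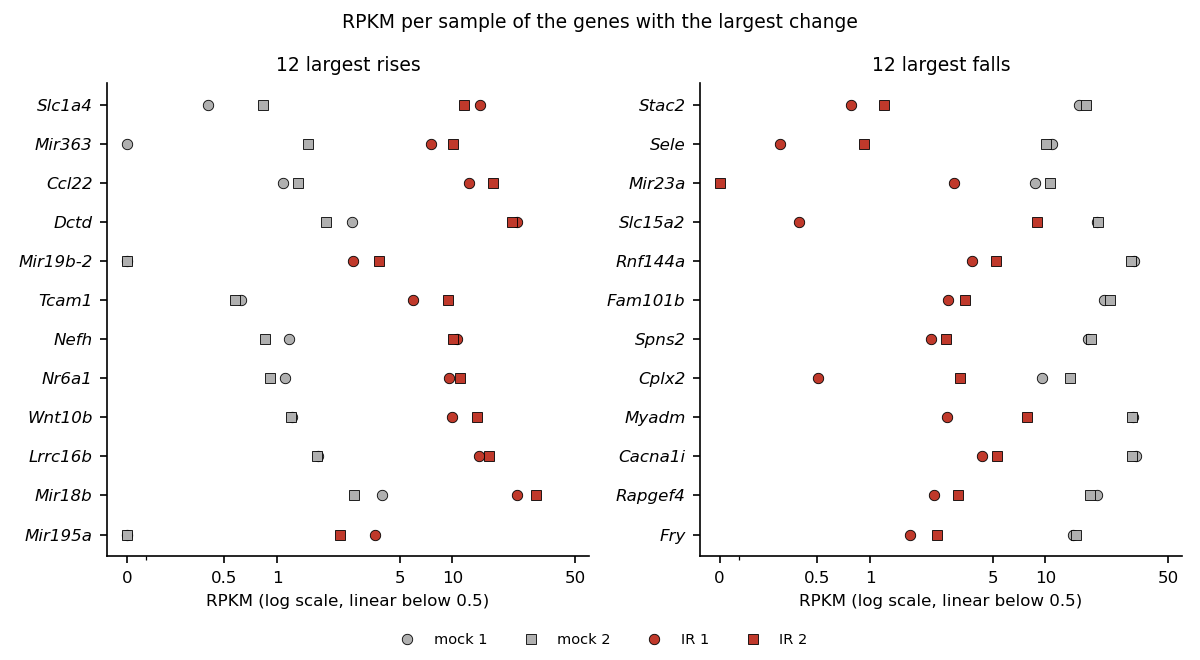
RPKM in each of the 4 Trp53-/- B samples of the 12 genes with the largest rise (left) and the 12 with the largest fall (right), on an axis that is logarithmic above 0.5 and linear below; grey marks are mock samples, red marks irradiated samples, circles replicate 1 and squares replicate 2. The genes were selected to have both irradiated samples on the same side of both mock samples. The irradiated samples lie close together for Dctd (23.2 and 21.8) and far apart for Slc15a2 (0.405 and 8.95).

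The functions that responded were described by counts of members over 35 gene lists, of which 12 were added after values had been seen, and by the list median beside the median of 0.03 over all genes. Counts of every list stand beside the shares of all genes, 13.9% for rises and 11.9% for falls. Rises were concentrated in lists of the growth machinery: ribosome biogenesis, aminoacyl-tRNA synthetases, mitochondrial ribosomal proteins, nucleotide and cholesterol synthesis. Of these, the synthetase, mitochondrial ribosomal protein and nucleotide lists were among the 12 added after values had been seen, as was the G1 list. The counts of added lists are a description and not independent support. The share of members that fell was 31.3% for both interferon-stimulated genes and G1 genes (21 of 67 and 5 of 16), 28.1% for p53 targets and 24.1% for germinal centre and plasma cell regulators, against 11.9% of all genes, and the interferon count was 8 without mock sample 2 and 11 without irradiated sample 1.

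**Figure D2:**
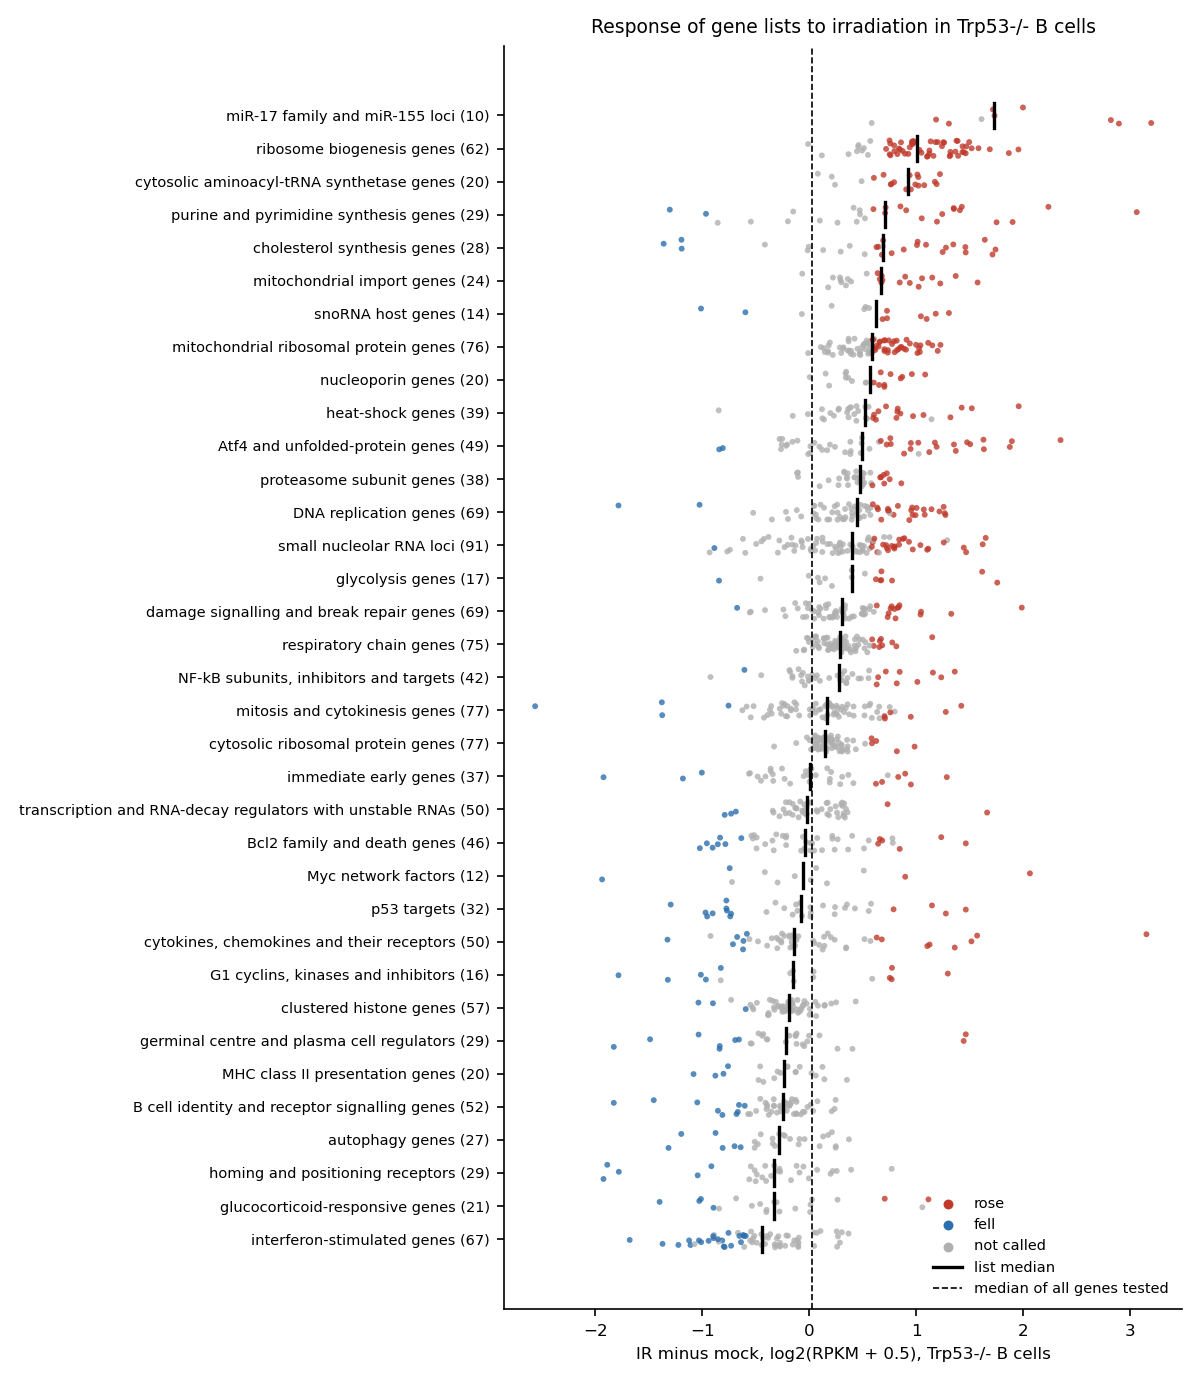
Log2 difference between irradiated and mock Trp53-/- B samples (x axis, log2(RPKM + 0.5)) for each tested member of 35 gene lists (rows, number tested in brackets); red points rose, blue points fell, grey points were not called, thick bars are list medians and the dashed line is the median of all genes tested, 0.03. Medians run from 1.73 for the miR-17 family and miR-155 loci to -0.44 for interferon-stimulated genes.

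The targets of p53 did not rise as a list. Of 32 tested members, 4 rose and 9 fell, with a median of -0.08 against 1.85 in Trp53+/+ B cells, where 24 rose. The genes best known for the p53 response were not called. Bbc3, the BH3-only killer Puma, had an RPKM of 2.37 and 2.01 in the mock samples and 1.78 and 2.71 after IR, and Sesn2, an antioxidant sestrin, 3.05 and 2.88 against 2.73 and 2.69. Mdm2, the ubiquitin ligase that degrades p53, had 32.4 and 32.0 against 26.6 and 28.1, and Ccng1, cyclin G1, 44.9 and 43.2 against 41.1 and 37.99. The responses of these 4 genes were more negative than in Trp53+/+ B cells, by -4.34 for Bbc3, -3.55 for Sesn2, -1.90 for Mdm2 and -1.79 for Ccng1 on the log2 scale. Cdkn1a, the cyclin-dependent kinase inhibitor p21, stayed below an RPKM of 1 in all 4 samples (0.689 and 0.563 in mock, 0.562 and 0.726 after IR), as did Phlda3, and Eda2r was listed at 0 in all 4, so that these 3 were not tested. Trp53 itself had 21.6 and 21.7 in the mock samples and 40.5 and 41.8 after IR, a log2 difference of 0.91 (SE 0.07, adjusted p = 2.3e-06). Which exons the null allele lacks is not given in the sources used here, so the RPKM of Trp53 over all its exons does not check the genotype.

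Some p53 targets moved without p53. Trp53inp1 (chr4:11083578-11101526, plus strand, mm9), a regulator of autophagy and cell death, fell from 62.8 and 65.5 to 25.95 and 25.7, while the same gene rose by 1.02 in Trp53+/+ B cells, and the difference between genotypes was -2.32 (adjusted p = 4.4e-08). Apaf1, the scaffold of the apoptosome, fell from 14.4 and 13.99 to 7.31 and 7.42 with a difference between genotypes of -2.96. Btg2, an antiproliferative partner of the deadenylase complex, fell from 78.7 and 83.8 to 49.4 and 48.1 (difference -1.11). In the other direction, Aen, an apoptosis-enhancing nuclease, rose from 22.9 and 22.8 to 53.7 and 49.0, by 1.15 on the log2 scale against 2.33 in Trp53+/+ B cells (difference -1.19). Plk3, a stress-responsive polo-like kinase, rose from 6.22 and 7.52 to 16.4 and 18.2, and its response was more positive than with p53 by 0.78. Fas, the death receptor, had 4.84 and 3.78 in mock and 17.5 and 9.17 after IR. Bax had 27.9 and 26.8 against 43.6 and 37.7, a difference of 0.56 that missed the size threshold (adjusted p = 0.00076) and was more negative than in Trp53+/+ cells by -1.36.

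Ribosome biogenesis, the making of ribosomal RNA and its assembly with proteins in the nucleolus, was the list with the largest share of rises. Of 62 members tested, 52 rose and none fell, with a median log2 difference of 1.00, against 13.9% rising among all genes. In 60 of the 62, both irradiated samples lay above both mock samples, against 40.7% of all genes. Rrp12 (chr19:41937342-41970643, minus strand, mm9), needed to export both ribosomal subunits, went from an RPKM of 11.8 and 10.8 to 42.8 and 42.1, a log2 difference of 1.87 (SE 0.09, adjusted p = 3.0e-07). Polr1a and Polr1b, the large subunits of RNA polymerase I, went from 17.7 and 17.8 to 41.1 and 40.5 and from 17.2 and 16.3 to 52.8 and 49.4. Within each pair the replicates differed by little compared with the step between groups, which the choice of genes by smallest adjusted p favours. Pwp2 and Utp20, components of the small-subunit processome, rose by 1.52 and 1.496, and the largest rise of the list was that of Rrp1b at 1.96. The median in Trp53+/+ B cells was 0.67, where 36 members rose, and 10 of the 62 responded more positively without p53 than with it, or 16.1% against 5.78% of all genes.

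The promoter of Utp20 is printed as an example of the sequence that 10 of the 53 ribosome biogenesis genes with a RefSeq promoter share, the E-box CACGTG, which basic helix-loop-helix factors of the Myc and Usf families bind. The window of 300 bases ends shortly after the start site (chr10:88826765-88827064, minus strand, GRCm38.p6, from RefSeq), with the E-box in capitals at base +38.
Utp20: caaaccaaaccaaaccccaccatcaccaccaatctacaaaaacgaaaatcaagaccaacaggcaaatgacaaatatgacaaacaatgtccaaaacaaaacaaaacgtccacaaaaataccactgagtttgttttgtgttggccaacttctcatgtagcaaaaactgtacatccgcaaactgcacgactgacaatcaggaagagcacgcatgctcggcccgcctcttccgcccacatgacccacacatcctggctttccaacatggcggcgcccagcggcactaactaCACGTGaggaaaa
CACGTG, which reads the same on both strands, was present for 18.9% of the genes of the list with a promoter. The share was 8.09% of 27025 genes with a promoter, 11.5% of the 10129 tested genes that have one and 17.4% of those that rose. A match describes letters and not binding.

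Other genes of translation differed in their response. All 16 of the cytosolic aminoacyl-tRNA synthetase genes that were called rose, of 20 tested, with a median of 0.92 against 0.32 in Trp53+/+ B cells. Mars and Cars, which load methionine and cysteine onto their tRNAs, went from 29.5 and 28.6 to 60.6 and 58.2 and from 14.99 and 15.1 to 36.4 and 33.7. Of 76 genes for mitochondrial ribosomal proteins, 39 rose and none fell (median 0.59). In 75 of them both irradiated samples lay above both mock samples, against 40.7% of all genes. Genes for cytosolic ribosomal proteins differed from these lists, with 5 of 77 rising, none falling and a median of 0.15. They are highly expressed, summing to an RPKM of 6340 and 6987 in the mock samples. Keeping 1 of each set of duplicated reads compresses such genes, and no gene exceeded an RPKM of 197 in the 4 samples. The part of this in the difference between lists was not tested. The 5 were Rps15a, Rps12, Rps24, Rpl11 and Rpl34, and the count was 3 without mock sample 1, without either irradiated sample or with median-ratio scaling, and 2 with quantile normalization. Host transcripts of small nucleolar RNAs, which carry them in their introns, gave 7 rises and 2 falls of 14, with 1 fall without mock sample 1 or irradiated sample 1. Snhg1 rose from 28.4 and 29.6 to 65.2 and 67.8 and Gas5 from 67.9 and 72.1 to 117.5 and 115. Neat1, the paraspeckle RNA, was listed with the hosts and fell from 91.0 and 85.6 to 36.8 and 51.5. Of 91 small nucleolar RNA loci, 26 rose and 1, Snord35b, fell, and up to 4 fell under the alternatives, 4 of them without irradiated sample 2.

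Several loci of the miR-17 clusters on chromosomes 14 and X rose in Trp53-/- B cells. The list named after the miR-17 family holds loci of both clusters, whatever their seed. Of the sequences printed below, only miR-17-5p and miR-20a-5p have the seed AAAGUGC. The mature RNAs of the clusters on chromosomes 14 and X fall into 4 seed groups, and miR-155, a lymphocyte miRNA encoded on chromosome 16, has its own. Mature sequences (RefSeq, GRCm38.p6) of the loci described here are given with the seed, bases 2 to 8, in capitals, since the seed decides which messages a miRNA can pair with.
miR-17-5p: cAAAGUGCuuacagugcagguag
miR-20a-5p: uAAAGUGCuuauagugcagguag
miR-18a-5p: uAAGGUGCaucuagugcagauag
miR-18b-5p: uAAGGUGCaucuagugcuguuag
miR-19a-3p: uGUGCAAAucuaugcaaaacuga
miR-19b-3p: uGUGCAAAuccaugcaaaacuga
miR-363-3p: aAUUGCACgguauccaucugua
miR-155-5p: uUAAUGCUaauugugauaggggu
miR-18a-5p and miR-18b-5p share their seed although they are encoded on different chromosomes, as do miR-19a-3p and miR-19b-3p.

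The RNA was total RNA without ribosomal RNA, so the reads on a hairpin were taken to come from the long primary transcript over that locus. That they do not come from the mature miRNA was not tested. Mir18b, in the cluster of 6 hairpins that spans 875 bases (chrX:52741693-52742567, GRCm38.p6), had 3 and 2 reads in the mock samples and 17 and 23 after IR (RPKM 3.94 and 2.73 against 23.2 and 29.7). Its log2 difference was 2.82 (SE 0.44, adjusted p = 3.0e-04), and it was more positive than in Trp53+/+ B cells by 3.37. Mir363 of the same cluster had 0 and 1 reads against 5 and 7, and Mir19b-2 was listed at 0 in both mock samples and had 2 and 3 reads after IR. The cluster did not move evenly, as Mir92-2 had 3 and 0 reads against 2 and 5 and Mir20b had 0 in all 4 samples. With so few reads, the call of Mir363 was lost without mock sample 1 (adjusted p = 0.058). In the cluster on chromosome 14 (chr14:115043671-115044506, GRCm38.p6), Mir18 had 23 and 21 reads against 40 and 65, and its host transcript Mir17hg rose from an RPKM of 21.2 and 21.9 to 53.6 and 54.4. Mir17 went from 1 and 5 reads to 7 and 16 and Mir20a from 4 and 5 to 13 and 20; leaving out mock sample 1 or irradiated sample 2 ended the call of Mir17, and leaving out any of the 4 samples ended that of Mir20a. Mir155 rose from 9.92 and 9.85 to 35.5 and 31.9 on the RPKM scale. Of 10 loci in this list, 8 rose, and hairpins of 1 cluster share a transcript and are not independent of each other. Mir23a, at another locus, had 6 and 7 reads against 2 and 0, with the call lost without either mock sample or irradiated sample 2, and Mir195a had 0 and 0 against 3 and 2, with the call lost without any of the 4 samples.

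The Myc network holds transcription factors that bind the E-box, with Myc activating and the Mxd proteins repressing. Myc had an RPKM of 25.6 and 26.1 in the mock samples and 48.5 and 48.6 after IR, a log2 difference of 0.90 with an adjusted p of 0.045 (limma). This call was lost under 12 of 22 alternatives, including the omission of any of the 4 samples. It was kept in the 4 Trp53-/- samples alone, where the spread of the Trp53+/+ samples does not enter. The log2 difference of Myc lay between 0.81 and 0.91 over the 22 alternatives. Tfap4, a factor of the same family that Myc activates, rose from 6.61 and 6.28 to 29.4 and 27.7. Mxd4 fell from 61.3 and 53.1 to 13.3 and 15.9. Of the 12 genes of this list 2 rose and 2 fell, the fourth being Mxd1, whose fall was lost without mock sample 2 or irradiated sample 1. Each share was 16.7%, against 13.9% rising and 11.9% falling among all genes.

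Genes of amino acid supply and of the Atf4 and unfolded-protein programs gave 20 rises and 2 falls of 49 tested, with a median of 0.49 against 0.18 in Trp53+/+ B cells. The rises included genes of amino acid transport and of serine and one-carbon metabolism. Slc7a5, a subunit of the leucine transporter, rose from 7.33 and 8.82 to 31.7 and 30.9, a log2 difference of 1.90 (SE 0.13, adjusted p = 1.1e-06) that exceeded the response with p53 by 0.91. Psat1, an enzyme of serine synthesis, rose from 9.98 and 11.4 to 37.4 and 31.0 (difference between genotypes 1.33), and Shmt2, which moves the serine carbon into folate in mitochondria, from 33.3 and 36.9 to 102 and 95.1. Asns (chr6:7625169-7643254, minus strand, mm9), asparagine synthetase, went from 0.509 and 0.471 to 4.82 and 4.29, while it did not pass the test in Trp53+/+ B cells (-0.38). The difference between genotypes of Asns was 2.73 (adjusted p = 0.012), and its adjusted p lay between 0.051 and 0.058 without either mock sample or irradiated sample 1. Chac1 and Trib3, which Atf4 activates under stress, were low, with 0.487 and 0.217 against 2.67 and 1.30 and with 0.585 and 0.332 against 2.76 and 1.31. The 2 falls were Eif2ak3, the sensor kinase Perk, at -0.84 and Pck2 at -0.81.

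The promoter of Asns is shown because it holds the composite element TGATGNAA, to which Atf4 binds with C/EBP factors, in capitals at base -23 (chr6:7693160-7693459, minus strand, GRCm38.p6, from RefSeq).
Asns: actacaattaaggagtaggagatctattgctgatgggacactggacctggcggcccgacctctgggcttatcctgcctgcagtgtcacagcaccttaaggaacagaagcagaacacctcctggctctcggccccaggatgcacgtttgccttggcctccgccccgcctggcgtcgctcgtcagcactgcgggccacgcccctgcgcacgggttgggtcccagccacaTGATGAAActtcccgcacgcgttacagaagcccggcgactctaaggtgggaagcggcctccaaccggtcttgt
The element was searched on both strands. It was present for 4.51% of 27025 genes with a promoter, 2.92% of the 10129 tested genes that have one and 3.06% of those that rose. Of 49 tested genes of the list only 39 have a promoter in the table, so no share is given for it.

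Nucleotide synthesis gave 16 rises and 2 falls of 29 (median 0.71). Beside Dctd, rises were found in the pyrimidine pathway for Uck2, which salvages uridine (8.41 and 10.4 to 47.1 and 44.7), and for Ctps, which makes CTP (11.01 and 10.9 to 44.4 and 40.2). In purine synthesis Ppat, the enzyme of the committed step, rose from 15.1 and 14.5 to 43.3 and 38.1. Dck, deoxycytidine kinase, and Ctps2 fell by 1.30 and 0.97 on the log2 scale, and 4 genes of the list fell without irradiated sample 2. Of 17 glycolysis genes 7 rose, led by Hk2, the inducible hexokinase (5.30 and 4.85 to 17.2 and 19.6), and by the lactate transporter Slc16a1 (9.09 and 9.78 to 31.8 and 28.3). Hk1, the constitutive hexokinase, fell by 0.84, a call lost without mock sample 1 or irradiated sample 1.

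Genes of cholesterol synthesis rose in Trp53-/- B cells. Of 28 genes tested, 17 rose and 3 fell, with a median of 0.69 against 0.07 with p53 and 0.12 in Trp53-/- non-B cells, and 15 of the 28, or 53.6%, responded more positively than with p53, against 5.78% of all genes. Idi1 (chr13:8884852-8891641, plus strand, mm9), the isopentenyl diphosphate isomerase, went from an RPKM of 15.5 and 17.5 to 52.6 and 52.3, a log2 difference of 1.64 (SE 0.17, adjusted p = 1.6e-05; difference between genotypes 1.00). Cyp51, which removes a methyl group from lanosterol, went from 18.3 and 21.1 to 49.7 and 47.2 (difference 1.09). Cyp51 did not pass the test with p53, at 0.19. Fdps, which makes farnesyl diphosphate, rose by 1.25 and Sqle, the squalene epoxidase, by 1.71. The 3 falls were of genes that act against cholesterol uptake or retention. Mylip, a ubiquitin ligase, fell from 57.7 and 61.8 to 20.4 and 25.8, the exporter Abca1 from 34.5 and 37.4 to 16.7 and 14.2 and the exporter Abcg1 from 28.2 and 30.9 to 11.7 and 13.7.

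DNA replication genes, which E2F factors switch on before S phase, gave 22 rises and 2 falls of 69, with a median of 0.44 against -0.12 in Trp53+/+ B cells, where 4 rose and 12 fell. The response was more positive than with p53 for 25 of the 69, or 36.2%, against 5.78% of all genes. Uhrf1 (chr17:56442744-56462909, plus strand, mm9), which carries DNA methylation through replication, rose from 11.9 and 12.4 to 30.5 and 28.8, while in Trp53+/+ B cells it fell by 0.64; the difference was 1.90 (adjusted p = 8.6e-05). Mcm2, a subunit of the replicative helicase, rose from 20.2 and 21.8 to 49.7 and 40.6 (difference 1.22), and Pold2, a subunit of DNA polymerase delta, from 19.0 and 20.6 to 50.04 and 46.7 (difference 1.06). Orc2, of the origin recognition complex, rose by 1.00. The falls were Ccne1, cyclin E1, from 21.6 and 24.8 to 6.37 and 6.36, and E2f2, from 31.2 and 34.5 to 15.3 and 16.5.

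The first of the 2 RefSeq start sites of Uhrf1 is printed for its match to TTTNNCGC, in capitals at base -56 (chr17:56303087-56303386, plus strand, GRCm38.p6, from RefSeq). TTTNNCGC is a loose form of the E2F site that allows any base at 2 positions, and the match here is TTTCTCGC. The second start site, not printed, holds TTTCGCGC at base -185.
Uhrf1: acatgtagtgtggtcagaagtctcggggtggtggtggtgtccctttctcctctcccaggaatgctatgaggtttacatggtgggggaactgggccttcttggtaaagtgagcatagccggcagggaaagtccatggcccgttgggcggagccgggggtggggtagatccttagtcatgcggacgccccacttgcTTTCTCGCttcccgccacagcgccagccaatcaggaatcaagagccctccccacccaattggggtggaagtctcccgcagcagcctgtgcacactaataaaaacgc
TTTNNCGC was present, on either strand, for 43.1% of the 58 replication genes with a promoter. The share was 5.93% of 27025 genes with a promoter, 9.64% of the 10129 tested genes that have one and 9.89% of those that rose.

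Genes of the G1 phase moved in both directions, with 4 rises and 5 falls of 16. Ccnd2, the D-type cyclin of B cells, rose from 36.3 and 36.8 to 96.2 and 85.1, and its partners Cdk4 and Cdk6 rose by 0.75 and 0.77. Cdkn1b, the inhibitor p27, fell from 48.8 and 48.7 to 28.9 and 25.7, and the pocket proteins Rb1 and Rbl2 fell from 35.6 and 37.0 to 17.8 and 17.6 and from 30.6 and 30.6 to 14.2 and 16.8. Mitosis genes did not move as a list, with 6 rises and 4 falls of 77 and a median of 0.16, while 37 of the 77 fell with p53 (median -0.59). Cdc25b (chr2:131012685-131024233, plus strand, mm9), a phosphatase that opens mitosis, fell from 36.6 and 37.0 to 4.81 and 7.02, a log2 difference of -2.56 (SE 0.19, adjusted p = 1.9e-06) that was near the -2.65 with p53 (difference 0.09, adjusted p = 0.84). Cenpa, the centromeric histone, and Ndc80, of the kinetochore, fell by 1.37 and 1.38. Mybl2, which activates G2 genes, rose from 1.71 and 2.17 to 5.97 and 6.06, with a difference between genotypes of 1.34 whose adjusted p was 0.073 without mock sample 1. The count of mitosis genes that rose was 3 without irradiated sample 1 and 10 or 11 under 4 alternatives. Of 57 clustered histone genes none rose and 3 fell, and only 1 still fell without mock sample 2 or without irradiated sample 2.

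Damage signalling and repair genes gave 14 rises and 1 fall of 69 (median 0.31 against -0.01 with p53). The share of rises was 20.3%, against 13.9% of all genes. Chek1 (chr9:36516067-36534650, minus strand, mm9), the kinase of the replication checkpoint, had the largest rise, from 1.46 and 1.69 to 8.79 and 6.75, a log2 difference of 1.99 (SE 0.26, adjusted p = 7.3e-05) and 2.07 above the response with p53. Wee1, which holds Cdk1 inactive, rose from 6.67 and 5.404 to 17.0 and 14.8. Xrcc5 and Xrcc6, the Ku subunits that hold broken ends for joining, rose from 16.5 and 15.9 to 33.6 and 34.2 and from 17.8 and 19.2 to 35.9 and 31.4. Atr, the kinase above Chek1, rose by 0.73 and Lig3, a DNA ligase, by 0.80. Polm, a polymerase of end joining, was the fall, at -0.67, and 2 genes fell without mock sample 1. In the Bcl2 family and death list, 6 of 46 rose (13.0%) and 7 fell (15.2%), near the 13.9% and 11.9% of all genes. Casp9, the caspase that Apaf1 activates, fell from 14.3 and 14.1 to 6.23 and 7.26, and Bmf, a BH3-only killer, from 30.6 and 31.1 to 16.8 and 16.9. Bid, which links death receptors to mitochondria, rose from 30.1 and 28.0 to 55.7 and 49.8, and Bcl2a1d, a survival member of the family, from 8.36 and 10.5 to 24.2 and 21.4, although Bcl2a1 copies are near-identical and their reads may be split.

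Heat-shock genes gave 15 rises and no fall of 39 (median 0.52 against 0.22 with p53), but the count depended on irradiated sample 1, without which 6 rose and 1 fell. Hspd1, the mitochondrial chaperonin, went from 43.7 and 46.2 to 109.6 and 82.0, Fkbp4, a co-chaperone of Hsp90, from 43.0 and 41.8 to 98.4 and 71.0, and Dnaja3, a mitochondrial co-chaperone, from 18.1 and 18.5 to 35.9 and 31.3. In each of these the value was higher in irradiated sample 1 than in sample 2. The inducible Hspa1b had 0.815 and 0.363 in the mock samples, 11.3 in irradiated sample 1 and 0.954 in sample 2, and Hspa1a 0.195 and 0.284 against 4.17 and 0.460, and without irradiated sample 1 neither was called. Over 21 alternatives the call of Hspa1b was lost in 13 and that of Hspa1a in 12, with adjusted p up to 0.53 and 0.47. The 2 copies are near-identical in sequence and share reads.

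The promoter of Fkbp4 holds the pair of inverted units that form the core of a heat-shock element, GAANNTTC, in capitals at base -151 (chr6:128438607-128438906, minus strand, GRCm38.p6, from RefSeq), and is printed as the example from this list.
Fkbp4: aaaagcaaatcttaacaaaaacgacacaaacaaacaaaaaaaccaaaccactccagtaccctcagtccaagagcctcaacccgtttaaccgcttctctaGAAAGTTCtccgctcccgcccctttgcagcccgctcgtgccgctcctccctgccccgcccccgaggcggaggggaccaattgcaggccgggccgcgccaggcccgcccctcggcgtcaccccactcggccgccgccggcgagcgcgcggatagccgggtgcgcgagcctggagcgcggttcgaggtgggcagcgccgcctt
GAANNTTC, searched on both strands, was present for 36.4% of the 33 heat-shock genes with a promoter. The share was 9.04% of 27025 genes with a promoter, 7.21% of the 10129 tested genes that have one and 6.97% of those that rose.

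NF-kB subunits, inhibitors and targets gave 9 rises and 1 fall of 42 (median 0.28). The share of rises was 21.4%, against 13.9% of all genes. Tnf (chr17:35336326-35338952, minus strand, mm9), the cytokine that itself activates NF-kB, rose from 20.6 and 26.3 to 61.9 and 59.3, a log2 difference of 1.36 (SE 0.15, adjusted p = 2.3e-05), and exceeded the response with p53 by 1.49. Tnfaip3, the inhibitor A20, rose from 30.9 and 32.2 to 66.4 and 61.9, and Icam1, an adhesion molecule, from 31.1 and 31.9 to 57.7 and 54.4. Sod2, the mitochondrial superoxide dismutase, rose from 10.6 and 10.8 to 17.8 and 17.97. The fall, Map3k14 at -0.61, was lost without mock sample 1 or irradiated sample 1, and 2 genes fell without irradiated sample 2. Among 50 cytokines, chemokines and receptors, 8 rose (16%) and 6 fell (12%), near the shares of all genes, with Ccl22 highest at 3.15 and Ifng, which went from 1.54 and 1.503 to 0.188 and 0.444, lowest at -1.33. The costimulatory ligand Tnfsf4 went from 0.068 and 0.141 to 1.13 and 1.33, a rise of 1.52 that was 4.50 below the rise with p53. Counts in this list fell to 4 rises without mock sample 2 or irradiated sample 2 and to 2 falls without irradiated sample 1.

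Immediate early genes, which are transcribed within minutes of a stimulus, gave 6 rises and 3 falls of 37 (16.2% and 8.11%) and a median of 0.00. These shares were near the 13.9% and 11.9% of all genes. Gadd45g rose from 12.5 and 15.6 to 31.8 and 38.2 and Gadd45b from 21.9 and 23.6 to 46.1 and 36.3, whereas Gadd45a, the stress sensor that p53 also activates, fell from 14.1 and 19.2 to 6.85 and 9.202. The rises were 3 without mock sample 1 and 2 without irradiated sample 1, and that of Junb (48.1 and 54.4 to 82.8 and 75.6) was among those lost in both.

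Interferon-stimulated genes, the antiviral program under type I interferon, formed the list with the lowest median. None of 67 rose and 21 fell (31.3%, against 11.9% of all genes), with a median of -0.44, and the median was -0.42 with p53. Cmpk2 (chr12:27154069-27164700, plus strand, mm9), a mitochondrial nucleotide kinase, fell from 20.4 and 29.6 to 6.61 and 8.11, a log2 difference of -1.68 (SE 0.21, adjusted p = 5.7e-05). Samhd1, which hydrolyses deoxynucleotides, fell from 62.0 and 64.0 to 24.9 and 28.6, and Ddx58, the RNA sensor RIG-I, from 36.1 and 42.5 to 17.7 and 20.9. The mock samples differed from each other for several members, as for Slfn8 with 47.5 and 72.3 against 36.1 and 31.0 after IR and for Mx1 with 20.8 and 32.3 against 10.7 and 17.6. In both genes mock sample 2 was the higher, and the count of falls was 8 without it and 11 without irradiated sample 1.

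Some B cell genes fell. Of 52 genes of B cell identity and receptor signalling none rose and 9 fell (17.3%, against 11.9% of all genes), with a median of -0.25. In 43 of the 52, both irradiated samples lay below both mock samples, against 32.9% of all genes. Bach2, the repressor that holds B cells from becoming plasma cells, fell from 54.8 and 54.7 to 11.9 and 19.0, a log2 difference of -1.83 (SE 0.17, adjusted p = 8.0e-06). Cd55, which shields cells from complement, fell from 101 and 104 to 30.7 and 44.7, by 1.45 on the log2 scale against -0.15 with p53 (difference -1.30). The lineage factor Ebf1 fell from 65.8 and 67.7 to 36.4 and 39.2, the Src-family kinase Blk from 91.8 and 98.8 to 59.8 and 58.7 and the kinase Btk from 55.1 and 56.3 to 36.2 and 36.9. Beside these values, 2 of the 10 B cell markers, Ebf1 and Blk, were among the falls, and the summed level of the 10 was lower after IR in both samples; the part of cell number in this was not tested.

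Genes of antigen presentation by MHC class II gave 4 falls of 20 (20%, against 11.9% of all genes). H2-Ob and H2-Oa, which restrain peptide loading, fell from 122.98 and 124 to 57.3 and 59.0 and from 89.1 and 92.9 to 46.0 and 52.7, and March1, a ligase that removes class II from the surface, from 70.3 and 71.5 to 39.1 and 41.9. Ctsl, a lysosomal protease, was the other, with 11.5 and 12.5 against 5.17 and 9.09 and the call lost without either mock sample or irradiated sample 1. Regulators of the germinal centre and of plasma cells gave 2 rises and 7 falls of 29. Sdc1, the plasma cell proteoglycan CD138, fell from 12.1 and 11.6 to 3.71 and 4.11, while it rose by 0.65 with p53 (difference -2.13), and no other of the 6 plasma cell markers was called, the 6 summing to 182 and 181 in mock and 189 and 173 after IR. Mef2b, a germinal centre factor, rose from 3.27 and 2.75 to 8.65 and 9.41.

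Receptors of homing and positioning, which route B cells through blood, spleen and lymph nodes, gave 5 falls and no rise of 29. The share of falls was 17.2%, against 11.9% of all genes. Klf2 (chr8:74842932-74845555, plus strand, mm9), the factor that keeps resting lymphocytes in circulation, fell from 68.3 and 77.6 to 15.1 and 23.4, a log2 difference of -1.92 (SE 0.16, adjusted p = 3.2e-06). S1pr4, a receptor for sphingosine 1-phosphate, fell from 60.9 and 63.6 to 18.04 and 17.5, and Itgb7, the integrin chain of gut homing, from 59.4 and 53.2 to 12.9 and 17.0. For each of these 3, selected by adjusted p, the irradiated samples lay far below the mock samples. Their response with p53 was also a called fall (-1.34, -1.63 and -2.21). Of 21 glucocorticoid-responsive genes 2 rose and 4 fell, with Klf13 from 54.8 and 54.9 to 26.3 and 27.0 and Pik3ip1, an inhibitor of PI3-kinase, from 30.8 and 33.0 to 12.2 and 11.4, and Per2, a clock repressor, rising from 4.41 and 4.00 to 9.59 and 9.79. The shares of this list were 9.52% rises and 19.0% falls, against 13.9% and 11.9% of all genes. The count of rises was 1 without mock sample 2 or irradiated sample 1. Autophagy genes gave 6 falls and no rise of 27 (22.2% falling, against 11.9% of all genes), led by Atg9a at -1.32.

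The remaining lists gave more rises than falls or few calls. Mitochondrial import genes gave 14 rises of 24, led by Timm8a1 (24.7 and 22.6 to 77.1 and 66.1), nucleoporins 10 of 20, proteasome subunits 8 of 38 and the respiratory chain 9 of 75, with no fall in any of the 4. The respiratory chain share, 12%, was below the 13.9% of all genes. The respiratory chain count was 3 with quantile normalization, and the proteasome count was 15 without irradiated sample 2. In the respiratory chain Ndufa12, an accessory subunit of complex I, led with 27.8 and 32.7 against 71.7 and 63.7. Regulators of transcription and RNA decay gave 2 rises and 3 falls of 50 (median -0.02), with Zc3h12c, an RNase of the Regnase family, from 15.3 and 11.2 to 44.2 and 41.0.

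The response without p53 was set beside that of Trp53+/+ B cells by a test of the difference itself. It was more positive in Trp53-/- cells for 756 genes (5.78%) and more negative for 802 (6.13%), and without mock sample 1, mock sample 2 or irradiated sample 1 of the null cells the first count was 400, 471 and 429. Without irradiated Trp53+/+ B samples 1 and 2, which stood apart in their receptor genes, the counts were 644 and 871, and those of the response itself 1898 rises and 1638 falls. Of the 1818 genes that rose without p53, 1310 (72.1%) had no called difference between genotypes, 465 were more positive and 43 more negative, and of the 1560 that fell, 1222 (78.3%) had no called difference. The same Trp53-/- samples enter both tests, so these shares are a description. A rise was also called with p53 for 713 genes, 39.2% of the rises without p53 and 47.9% of the 1488 rises with it (11.4% of genes tested), and a fall for 870, 55.8% and 52.4% of the 1659 falls with p53 (12.7%). Among genes called in Trp53-/- cells, the differences farthest below 0 were those of Psrc1 (-6.51), Plk2 (-5.45), Tnfsf4 (-4.50), Plekha7 (-4.24) and 9030617O03Rik (-4.19). Those farthest above 0 were Mir18b (3.37), Mir19b-2 (3.35), Asns (2.73), Slc1a4 (2.55) and Bag2 (2.27). Bag2, a co-chaperone of Hsp70, went from 1.26 and 1.87 to 9.12 and 7.09 and had a response of -0.21 with p53. Psrc1, a microtubule-associated protein, had 1.23 and 0.959 against 0.383 and 0.484, and Plk2, a polo-like kinase, 3.78 and 4.26 against 2.88 and 1.56, and both calls of a fall were lost when single null samples were left out, mock sample 1 or irradiated sample 1 for Psrc1 and mock sample 2 or irradiated sample 2 for Plk2.

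**Figure D3:**
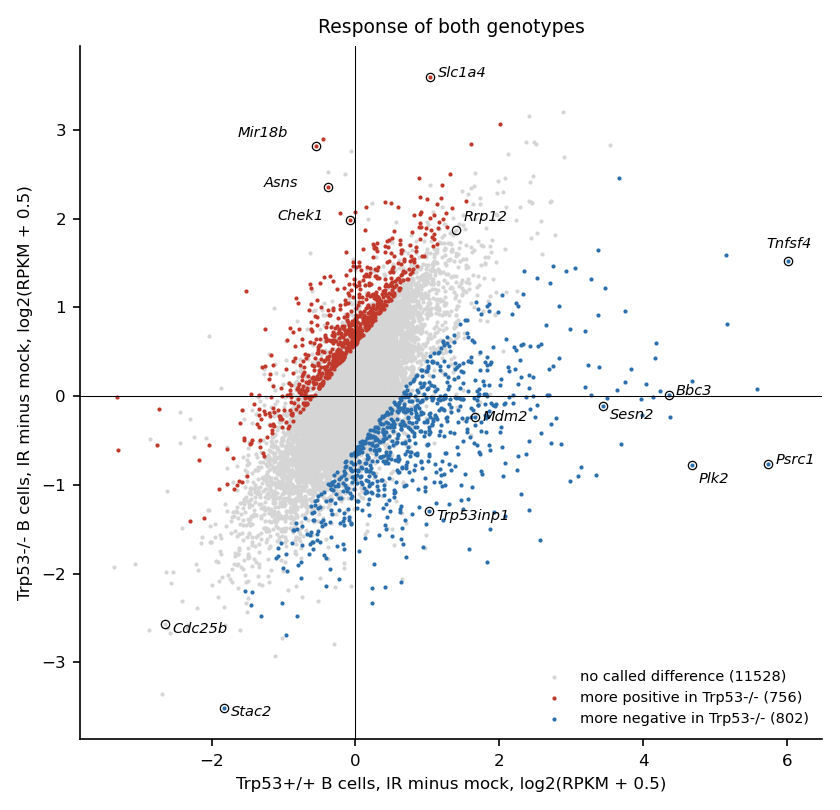
Log2 difference between irradiated and mock samples in Trp53+/+ B cells (x axis) and Trp53-/- B cells (y axis), on log2(RPKM + 0.5), for 13086 genes; red points responded more positively without p53 (756 genes), blue points more negatively (802), grey points had no called difference, and circled genes are named. Bbc3, Sesn2 and Mdm2 lie near 0 on the y axis and to the right, while Chek1, Asns and Mir18b lie high on the y axis near 0 on the x axis or left of it.

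In Trp53-/- non-B cells, which came from the same genotype and conditions, limma called no gene after adjustment (smallest adjusted p 0.087), with 2397 genes at an unadjusted p under 0.05. Of the genes that rose in Trp53-/- B cells, 88.9% had a log2 difference above 0 in non-B cells, and of those that fell, 92.4% had one below 0, with medians of 0.31 and -0.33 against 0.91 and -0.96. Over all genes tested the median in non-B cells was -0.005. The share with the same direction over all genes was not computed, so these shares are a description. The test of the difference called 100 genes more positive in B cells (0.764%) and 129 more negative (0.986%). The most positive were Uck2 (2.39), Dctd (2.30), Nefh (2.25), Nipal1 (2.18) and Nme4 (1.92), and the most negative Fam101b (-2.57), Rapgef4 (-2.33), Scml4 (-2.31), Rnf144a (-2.28) and Mturn (-2.25). Rnf144a, a ubiquitin ligase, went from 32.0 and 30.8 to 3.80 and 5.20 in B cells, and Scml4, a Polycomb-group protein, from 28.4 and 28.8 to 4.98 and 5.65. The counts depended on single samples. Both were 0 without mock sample 1, mock sample 2 or irradiated sample 1 of the B cells, or without irradiated sample 2 of the non-B cells. Leaving out another single sample gave 14 (irradiated B sample 2), 27 and 2 (mock non-B samples 1 and 2) and 399 (irradiated non-B sample 1) more positive genes, and 121, 30, 1 and 196 more negative ones in the same order, so that the 129 moved little without irradiated B sample 2. With the replicate number as a block the counts were 6 and 19.

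**Figure D4:**
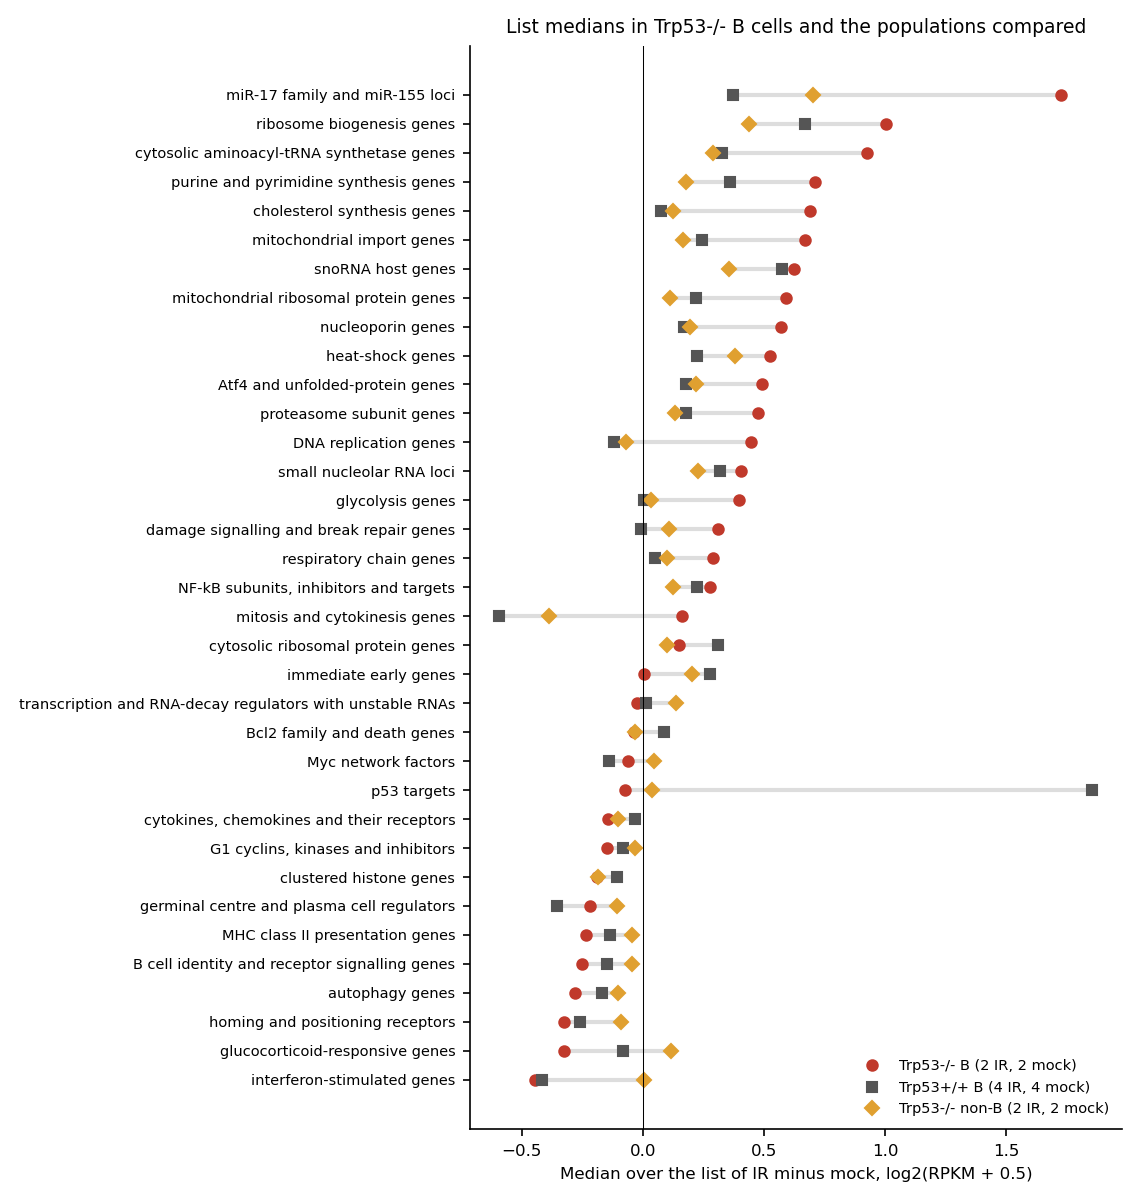
Median log2 difference between irradiated and mock samples (x axis, log2(RPKM + 0.5)) over the tested members of each list (rows), in Trp53-/- B cells (red circles, 2 against 2 samples), Trp53+/+ B cells (dark squares, 4 against 4) and Trp53-/- non-B cells (orange diamonds, 2 against 2). The p53 targets have medians of -0.08, 1.85 and 0.04, cholesterol synthesis 0.69, 0.07 and 0.12, and DNA replication 0.44, -0.12 and -0.07.

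The direction of change also ran with the length of the gene. The 12065 tested genes with a span in the annotation (92.2%) were divided into 10 bins by the distance from first to last base, with medians from 1.56 kb to 159 kb. In the bin of the shortest genes 15.7% rose and 7.71% fell, and in the bin of the longest 7.13% rose and 23.4% fell. The median log2 difference was 0.08 in the first bin, highest at 0.17 in the third and -0.23 in the last. In Trp53+/+ B cells the first and last bins had medians of 0.08 and -0.10, and in Trp53-/- non-B cells 0.03 and -0.13. Short and long genes differ in function and level, and their part in this was not tested. Among the genes described above, Bach2 spans chr4:32325779-32673083 on mm9 and S1pr4, a far shorter gene, chr10:80961223-80962452, and both fell.

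**Figure D5:**
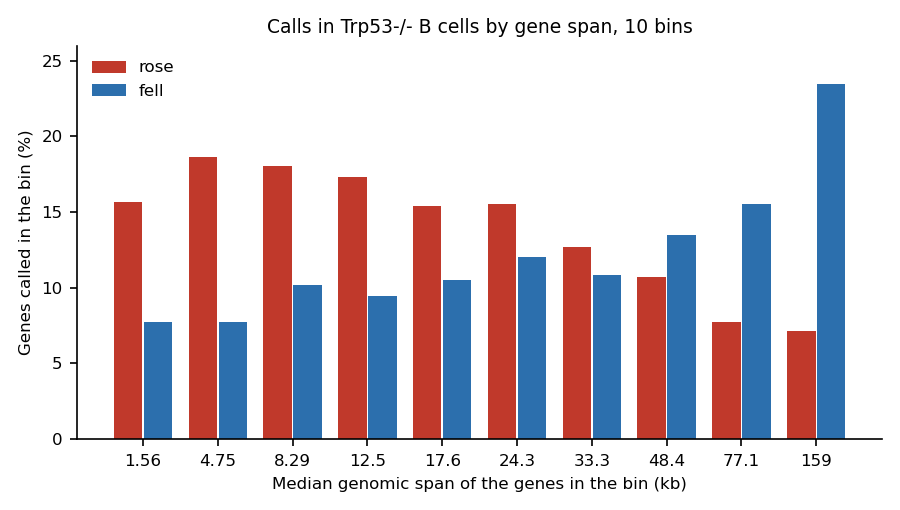
Percentage of tested genes that rose (red) or fell (blue) in Trp53-/- B cells after IR (y axis, bars from 0) in 10 bins of gene span (x axis, labelled with the median span of each bin in kb). The share that fell goes from 7.71% in the shortest bin to 23.4% in the longest and the share that rose from 15.7% to 7.13%.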

How the data were processed

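RNA was measured by paired-end RNA-Seq of total splenocyte RNA (Trizol, DNase, Ribo-Zero depletion, TruSeq v2 libraries, which do not mark strand, so that overlapping and antisense genes cannot be told apart). According to the methods and the submitters' processing notes, the authors masked bases of low quality, aligned reads to mm9 with TopHat2 (version 2.0.8 in the notes, while the methods give another), kept 1 of each set of duplicated reads, which compresses highly expressed genes, and counted reads on UCSC genes with featureCounts 1.4.5. The deposited values are RPKM, scaled by the authors to reads on exons. The counts were not used here, and reads per hairpin and depth were estimated from the steps between low RPKM values. Near-identical copies may split reads. A few genes are not reported here.

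A gene was tested where any of the 4 Trp53-/- B samples exceeded an RPKM of 1, on log2(RPKM + 0.5) with limma 3.58.1 in R 4.3.3 (eBayes with trend, Benjamini-Hochberg). The response and its difference between genotypes were fitted on 12 B samples with group means, and the difference from non-B cells on the 8 Trp53-/- samples. A gene was called at an adjusted p under 0.05 with an absolute log2 fold change above 0.58. The code was tested on simulated data. Same-numbered Trp53-/- B samples deviated together with a correlation of 0.054, and the labels do not say that a number marks a shared mouse.

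The members and lists were chosen with earlier results of these data known, and 12 of the 35 lists, and the genes named outside the rule, were chosen after values were seen. The added lists were mitochondrial ribosomal proteins, aminoacyl-tRNA synthetases, nucleotide synthesis, mitochondrial import, nucleoporins and proteasome subunits. The others added were small nucleolar RNA loci, the Myc network, G1 genes, glycolysis, autophagy, and the loci of the miR-17 clusters with miR-155. The rule named the 12 largest rises and falls with both irradiated samples beyond both mock samples, up to 5 called genes per list by smallest adjusted p, the 5 largest differences per direction in each comparison, Trp53 and 8 p53 targets. Alternatives were the pseudocount (0.1 and 1), the low-value filter, scaling, a fold threshold of 1 on the log2 scale, the replicate block, eBayes without trend, the samples in the fit and the omission of each sample. Promoters and miRNAs are from RefSeq tables for GRCm38.p6, in which 10129 of the 13086 tested genes had a promoter, and 5 motifs were searched on both strands. Motif shares are of genes, and a gene with several start sites counted where any of its windows held the motif. The motif without a printed example was the sterol element, TCACNCCAC. It was present for 1.34% of tested genes with a promoter and 1.07% of those that rose. In cholesterol synthesis it was present for 0 of 19 genes with a promoter, while 28 genes of that list were tested.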

Additional observations from a re-analysis of the deposited data

Results flagged for a closer look

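The response to IR differed between genotypes, by limma's test of the difference itself, for 756 genes that were more positive and 802 that were more negative in Trp53-/- than in Trp53+/+ B cells. Among the genes described, log2 differences above 0 were those of Slc1a4 (2.55), Mir18b (3.37), Mir19b-2 (3.35), Asns (2.73), Bag2 (2.27), Chek1 (2.07), Uhrf1 (1.90), Tnf (1.49), Mybl2 (1.34), Psat1 (1.33), Mcm2 (1.22), Cyp51 (1.09), Pold2 (1.06), Idi1 (1.00), Slc7a5 (0.91) and Plk3 (0.78). Differences below 0 were those of Psrc1 (-6.51), Plk2 (-5.45), Tnfsf4 (-4.50), Bbc3 (-4.34), Plekha7 (-4.24), 9030617O03Rik (-4.19), Sesn2 (-3.55), Apaf1 (-2.96), Trp53inp1 (-2.32), Sdc1 (-2.13), Mdm2 (-1.90), Ccng1 (-1.79), Bax (-1.36), Cd55 (-1.30), Aen (-1.19) and Btg2 (-1.11).

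Between Trp53-/- B and non-B cells the response differed for 100 genes that were more positive and 129 that were more negative in B cells. The named genes were Uck2 (2.39), Dctd (2.30), Nefh (2.25), Nipal1 (2.18), Nme4 (1.92), Fam101b (-2.57), Rapgef4 (-2.33), Scml4 (-2.31), Rnf144a (-2.28) and Mturn (-2.25) on the log2 scale. Each of these calls was lost when certain single samples were left out.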

How the results depend on the processing

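No response call of a named gene turned to the opposite call under any alternative. Bbc3, which was not called, lay between -0.24 and 0.26 when single samples were left out and changed sign at -0.02 with median-ratio scaling, -0.09 without Trp53-/- B mock sample 2 and -0.24 without irradiated sample 2. With an absolute log2 fold change above 1, 722 genes rose and 708 fell, 205 were more positive and 481 more negative than with p53, and 46 and 77 differed from non-B cells. Leaving out single samples gave 1544 to 1875 rises and 1049 to 2121 falls, 400 to 869 and 569 to 1084 differences between genotypes, and 0 to 399 and 0 to 196 from non-B cells. With the replicate number as a block, 1800 genes rose and 1509 fell, of which 1770 and 1486 were called without it, and the labels do not show that the numbers pair the samples.

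The difference from non-B cells was the least stable. Genes more positive in B cells numbered 3 with no filter, 179 with RPKM above 1 in all 4 samples, 59 with median-ratio scaling, 6 with the replicate block, 0 with eBayes without the trend and 389 with all 24 samples. Genes more negative numbered 13 with no filter, 19 with the replicate block, 0 without the trend and 333 with all 24 samples. Beside the counts of 0 in limma, 2838 genes had an unadjusted p under 0.05 without the trend, and 1906, 2062, 2677 and 2202 without B mock sample 1, B mock sample 2, irradiated B sample 1 and irradiated non-B sample 2. The cause was not tested.

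Of 3340 values of 146 named genes for the response, 133, in 58 genes, lost their call. For the difference between genotypes these were 74 of 1223 values, in 19 of 56 genes. For the difference from non-B cells they were 252 of 482 values, in 27 of 27 genes. At this depth hairpin loci hold few reads, which limits what can be said of single miRNA loci.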
